A study of Mus musculus with 108 samples.

Results

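A set of 10 chaperones and co-chaperones of the endoplasmic reticulum (ER) lumen was followed through single acinar cells of the mouse pancreas, 87 cells numbered 1 to 91 and 21 cells numbered from 92 upward in the sample titles. They were chosen by name, as the expression rows carrying the symbols Hspa5, Hsp90b1, Calr, Canx, Dnajb11, Dnajc3, Sdf2l1, Hyou1, Manf and Creld2, and 10 of 10 were found among 45195 gene rows. Donors were male C57BL/6 mice of 12 weeks that had received no treatment. According to the labels' protocols, collagenase digestion of the pancreas was followed by straining, which took out islets, and by Accutase, and cDNA of each picked cell was made by a modified SMART-seq2 procedure from polyadenylated RNA. All cells belonged to 1 group, and the labels named neither the animal nor the day or plate of a cell. The group was therefore 1 sample, so no p-values or standard errors are given, and every SD and range describes the spread between cells.

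Acinar cells make and secrete the digestive enzymes, and their ER folds more secretory protein than that of almost any other cell. Hspa5 (BiP) binds unfolded chains in an ATP-driven cycle that J-domain partners start and nucleotide exchange factors reset. Calreticulin and calnexin hold glycoproteins by their sugars, and Hsp90b1 (GRP94) acts later on selected clients. When unfolded protein accumulates, the sensors Atf6, Ern1 (IRE1) and Eif2ak3 (PERK) start the unfolded protein response, a programme that raises the transcription of many of these genes. One DNA element through which Atf6 and Xbp1 act is the ER stress response element, CCAAT and CCACG separated by 9 bases.

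The cells carried the markers of their label. Of 10 acinar markers, 9 were at or above 1 TPM (transcript share after correction for length, scaled to a total of 1000000) in every cell. Genes of the digestive enzyme list, which also held Reg1 of the Reg family, took a median of 89.5% of each cell's summed TPM. No lymphocyte marker reached 1 TPM in any cell. Of 5 markers of plasma cells, another secretory cell rich in ER chaperones, Mzb1, Igkc and Tnfrsf17 were in no cell and no cell held more than 1. Of 10 ductal markers, 1 was in every cell and 80 cells held 3 or more. Cell 40 held 7 ductal and 6 of 8 endothelial markers, and cell 96 held 4 of 8 stellate or fibroblast markers. The 21 cells numbered from 92 had deposited TPM totals of 788380 to 990520, whereas the 87 cells numbered 1 to 91 summed to about 1000000. The protocols state that 24 cells received spike-in RNA without saying which. Sequencing depth per cell cannot be read from TPM and is unknown, and a cell's number of genes at or above 1 TPM (median 4156, range 2624 to 6946) is given in its place.

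The genes lie on different chromosomes or far apart on one, as whole-gene spans of GENCODE M21 on GRCm38 (mm10) show, and each value covers the whole gene. The spans are Hspa5 at chr2:34771970-34777547 (plus strand), Hsp90b1 at chr10:86690209-86705509 (minus strand), Calr at chr8:84841850-84846934 (minus strand), Canx at chr11:50293961-50325673 (minus strand) and Dnajb11 at chr16:22857845-22879634 (plus strand). The others are Dnajc3 at chr14:118937976-118981697 (plus strand), Sdf2l1 at chr16:17130138-17132383 (minus strand), Hyou1 at chr9:44379490-44392369 (plus strand), Manf at chr9:106838312-106891979 (minus strand) and Creld2 at chr15:88819646-88826683 (plus strand).

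Most of the promoter windows at hand for these genes held the ER stress response element. The unfolded protein response raises the transcription of many of these genes, in part through this element. Their share with the element is therefore not independent of the choice of genes. RefSeq windows on GRCm38.p6, from 250 bases before to 50 bases after the annotated start, were at hand for 8 of the 10 genes, all but Hyou1 and Manf. The ER stress response element was found on either strand in 6 of these 8, against 37 of 27025 genes (0.137%) with a window of the same 300 bases. The stretches are shown because they carry the element. Each is 29 bases long and written 5′ to 3′ on the strand on which the element reads forward, with its CCAAT and CCACG blocks in capitals. The elements began from 65 bases (Hspa5) to 212 bases (the farther copy of Hsp90b1) before the start.
Hspa5, chr2:34772020-34772048, plus strand: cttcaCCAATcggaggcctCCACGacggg
Hsp90b1, chr10:86705528-86705556, plus strand: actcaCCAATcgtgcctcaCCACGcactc
Hsp90b1, chr10:86705633-86705661, minus strand: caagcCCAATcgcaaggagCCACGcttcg
Calr, chr8:84847070-84847098, plus strand: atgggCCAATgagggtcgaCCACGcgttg
Canx, chr11:50325795-50325823, minus strand: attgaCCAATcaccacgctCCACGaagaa
Dnajc3, chr14:118937822-118937850, plus strand: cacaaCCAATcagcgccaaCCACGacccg
Creld2, chr15:88819515-88819543, minus strand: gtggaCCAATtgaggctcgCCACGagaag

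In Hspa5, Canx, Dnajc3 and the farther copy of Hsp90b1 the element ran in the direction of the gene, and in Calr, Creld2 and the nearer copy of Hsp90b1 it ran against it. The Hspa5 stretch lay in a 5′ untranslated exon of a GENCODE transcript that starts farther upstream, and the other 6 stretches lay outside annotated genes. Dnajb11 held the related element ERSE-II (ATTGG, 1 base, CCACG), found in 12 of 27025 genes (0.0444%), with its first base 8 bases after the start. Another element, TGACG directly followed by TGG, whose end is CCACG read on the other strand, was in 193 genes (0.714%) and in 0 of the 8. Sdf2l1 held none of the 3 elements in this window. A match describes letters and does not show binding.

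All 10 genes were expressed in nearly every cell, and their levels spanned a wide range. Because TPM are corrected for length, levels can be set side by side between genes. Hspa5 stood highest at 114 ± 63.4 TPM (mean ± SD over all cells), with a lowest cell of 24.6, a median of 97.3 and a highest cell of 313 TPM. Its lowest value was in Cell__number_105 and its highest in cell 88. Hspa5 alone made up a median of 27.5% of the summed TPM of the 10 genes, with a range of 13.7 to 40.1%. That sum was 393 ± 160 TPM, from 132 in the same Cell__number_105 to 838 in cell 88.

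The partners of BiP differed from each other in level. Manf, a small secreted protein that binds BiP and steadies its ADP-bound form, was at 68.95 ± 29.1 TPM, from 19.5 (Cell__number_111) through a median of 64.7 to 161 TPM (cell 85). Sdf2l1, which works in a complex with Dnajb11, was at 51.3 ± 19.1 TPM, from 10.4 (cell 48) through 51.2 to 102.1 TPM (cell 1). The J-domain protein Dnajb11 was at 22.7 ± 7.22 TPM, from 7.54 (cell 97) through 22.4 to 43.3 TPM (cell 85). These ranges overlap, but Sdf2l1 had more than its partner Dnajb11 in its median cell. Dnajc3 (p58IPK), another J-domain protein of the lumen, was at 21.5 ± 5.92 TPM, from 6.87 (Cell__number_111) through 20.97 to 39.7 TPM (cell 39). Hyou1 (GRP170), a nucleotide exchange factor of BiP, was the lowest of the 10 at 3.62 ± 2.21 TPM, from 0 (Cell__number_111) through 3.19 to 14.3 TPM (cell 8). It reached 1 TPM in all but 7 cells (93.5% of cells, exact 95% binomial interval 87.1 to 97.4%, counting error only), while each of the other 9 genes did so in every cell (interval from 96.6%).

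Among the chaperones that act beside BiP, Hsp90b1 was at 36.4 ± 19.3 TPM, from 8.59 (cell 95) through 34.1 to 96.99 TPM (cell 88). Calr was at 25.8 ± 11.2 TPM, from 4.12 (cell 100) through 24.8 to 58.8 TPM (cell 39). Its membrane-bound relative Canx, whose chaperone domain faces the lumen, was at 8.74 ± 2.70 TPM, from 2.76 (cell 84) through 8.59 to 18.3 TPM (cell 39). The soluble lectin chaperone thus had a higher mean than the membrane-bound one. Creld2, a secreted ER protein with EGF-like repeats whose transcription rises in ER stress, was at 40.6 ± 21.7 TPM, from 2.72 (cell 98) through 35.9 to 102.3 TPM (cell 75).

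By mean the order was Hspa5, Manf, Sdf2l1, Creld2, Hsp90b1, Calr, Dnajb11, Dnajc3, Canx and Hyou1. Cell by cell, Dnajc3 exceeded Canx in all cells but 1, Canx exceeded Hyou1 in all but 4 and Hspa5 exceeded Manf in all but 11. Manf exceeded Sdf2l1 in 93 cells, Sdf2l1 exceeded Creld2 in 89 and Hsp90b1 exceeded Calr in 88. The steps between Creld2 and Hsp90b1 (64 cells), Calr and Dnajb11 (63) and Dnajb11 and Dnajc3 (60) were smaller than the spread between cells.

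**Figure D1:**
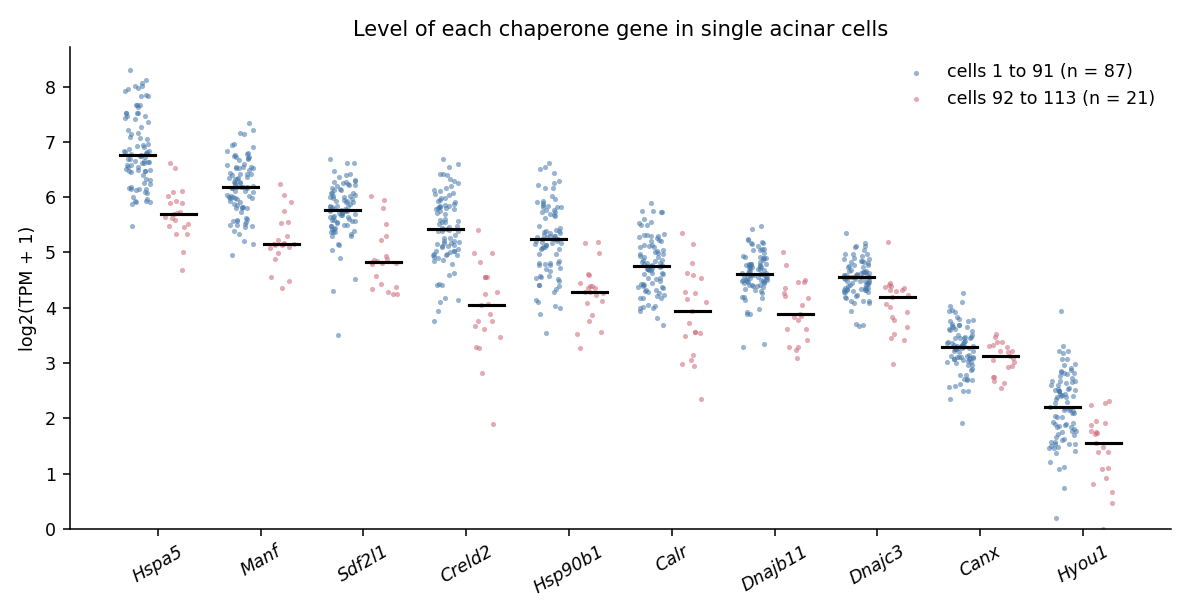
Level of each of the 10 genes as log2(TPM + 1) on the vertical axis, 1 point per cell, for cells 1 to 91 (blue, n = 87) and cells from 92 (red, n = 21), with black bars at the medians. Hspa5 is highest and Hyou1 lowest, the ranges of both sets of cells overlap for every gene, and the medians lie farthest apart for Creld2 and closest for Canx.

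The genes also differed in how far they varied. Spread was judged by the squared coefficient of variation (CV, the SD over the mean) against a trend over the 7227 genes at or above 1 TPM in at least 10% of cells, and 2 or more times the trend counted as variable. Hspa5 (CV 0.557, 3.92 times the trend), Creld2 (0.534, 2.55 times) and Hsp90b1 (0.529, 2.41 times) were variable. That is 3 of 10, where 12% of all genes passed. Manf lay just under the line at 1.91 times the trend, and passed it with no filter on low values or with a smoother trend. Creld2 was not variable within cells 1 to 91 alone.

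Calr (1.43), Sdf2l1 (1.34) and Hyou1 (0.974) lay near the trend. Dnajb11 (0.736), Dnajc3 (0.539) and Canx (0.437) lay under it, so both J-domain proteins and the membrane-bound lectin were the steadiest of the 10 for their level. The ratio of the 90th to the 10th percentile of cells was 4.16 for Hspa5 and 4.90 for Creld2, against 2.03 for Dnajc3 and 2.22 for Canx. Hyou1 had the largest CV (0.611) but also the lowest mean, where the trend is high.

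Cells with more of one chaperone had more of the others. Over the 45 pairs of genes, the median Spearman correlation of log2(TPM + 1) across all cells was 0.62, and 41 pairs reached 0.3. Hspa5 and Hsp90b1 were the closest pair at 0.88, followed by Creld2 with Hsp90b1 (0.83), Manf with Creld2 (0.81), Hspa5 with Creld2 (0.77) and Hspa5 with Manf (0.76). The points share each cell's library and depth, and cells are not replicates.

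The background for these values is 805 genes at or above 1 TPM in every cell, which include all but Hyou1. Among their 323610 pairs the median correlation was 0.15 and 15.2% reached 0.3, against 32 of 36 pairs of the 9 chaperone genes. Only 34 of the 323610 pairs, Hspa5 with Hsp90b1 included, were as close as that pair. Within cells 1 to 91 the median over the 45 pairs was 0.52, and 30 of 36 pairs reached 0.3 against 11.5% of all pairs. Within cells from 92 the median was 0.54, and 32 of 36 pairs reached 0.3 against 21.7% of all pairs, a higher background than in cells 1 to 91. The order of the pairs also changed. There Sdf2l1 with Dnajc3 was the closest pair at 0.84, and Hspa5 with Hsp90b1 stood at 0.47. The number of genes detected also moved with the chaperones (Spearman 0.50 with their mean z-score, 0.31 in cells 1 to 91 and 0.64 in cells from 92), and with its residuals the median over pairs was 0.60.

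**Figure D2:**
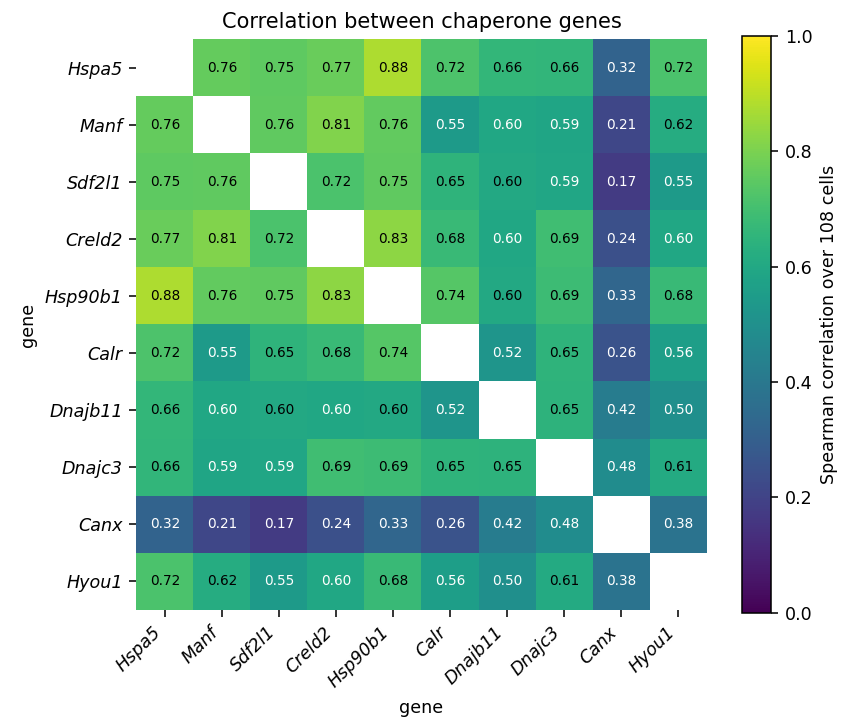
Spearman correlation of log2(TPM + 1) over all cells for each pair of the 10 genes, with both axes in order of mean level and colour from 0 to 1. The row and column of Canx are darker than the rest, with values of 0.17 to 0.48, and the brightest cell is Hspa5 with Hsp90b1 at 0.88.

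Canx followed the group least. Its median correlation with the other 9 genes was 0.32, whereas those of the others ran from 0.60 to 0.74. Its lowest partner was Sdf2l1 (0.17) and its highest Dnajc3 (0.48), and with Calr, the other lectin chaperone, it reached 0.26. After median-of-ratios scaling, which sets each cell by the middle gene rather than by the total, Canx with Calr was -0.02 and Canx with Sdf2l1 -0.12, while Hspa5 with Hsp90b1 was 0.85. Under that scaling the median over the 45 pairs was 0.51 and 36 reached 0.3, beside an all-pair median of 0.00 (-0.0025) and 3.23% of pairs. Canx carried the ER stress response element as Hspa5 did, and its correlation with Hspa5 was 0.32. A part of the element in these correlations was not tested.

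Set against the mean z-score of the other 9, the correlation was 0.89 for Hsp90b1, 0.88 for Hspa5, 0.82 for Creld2, 0.78 for Manf and 0.77 for Dnajc3. It was 0.76 for Sdf2l1, 0.72 for both Hyou1 and Calr, 0.69 for Dnajb11 and 0.35 for Canx. Among 3730 genes found in at least 50% of cells, the nearest gene outside the group was in most cases a protein disulfide isomerase, an enzyme that forms and reshuffles disulfide bonds in the ER. Pdia4 was nearest to Hsp90b1 (0.80), Creld2 (0.77), Sdf2l1 (0.76), Manf (0.73), Hyou1 (0.69) and Dnajb11 (0.65). Pdia3, the isomerase that works with calreticulin and calnexin, was nearest to Hspa5 (0.83) and Calr (0.65). Dnajc3 lay nearest to Sec61a1 (0.68), the channel of the ER translocon, and Canx to Tram1 (0.54), a membrane protein of the same site. Of the 20 genes nearest to each, 8 belonged to the group for Hspa5, Manf, Sdf2l1, Creld2, Hsp90b1 and Calr, 7 for Dnajc3 and Hyou1, 6 for Dnajb11 and 1 for Canx.

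The cells of highest and lowest mean z-score over the 10 genes are described as examples, and since they were chosen by these genes their shared direction follows largely from the choice. Cells 85 and 83 had 10 of 10 genes among the highest 27 cells, and cells 39 and 75 had 9. In cell 85 Hspa5 was at 267, Manf at 161 and Hsp90b1 at 75.1 TPM. Cells 95 and 97 and Cell__number_109 had 10 of 10 genes among the lowest 27 cells and Cell__number_111 had 9. In cell 95 Hspa5 was at 31.04, Manf at 22.4 and Hsp90b1 at 8.59 TPM. Cell__number_111 also had the fewest genes detected (2624) and the lowest deposited total, and leaving it out gave a median pair correlation of 0.61. The stress genes Ddit3 (CHOP) and Chac1 were at 21.8 and 110 TPM in cell 83, both their highest values, but at 5.41 and 8.56 TPM in cell 85. Cells 83 and 85, alike in chaperone level, thus differed in these genes.

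Cells from 92 had lower chaperone levels than cells 1 to 91. On the scale of mean log2(TPM + 1), 8 of the 10 genes were lower by at least 1.5-fold, against 4.29% of 7227 genes, and 0 were higher, against 0.443%. The median difference over the 10 genes was -0.86, and -0.15 over all genes. With median-of-ratios scaling 5 of 10 were lower by 1.5-fold, against 1.04% of all genes, and the medians were -0.59 and -0.02. The labels give no batch, animal or day for these numbers, so this is 1 set of cells against another without a test. Animal, plate, spike-in and cell state cannot be told apart here, nor can fewer transcripts per cell and a larger share taken by other RNA.

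Creld2 differed most. Its values ran from 12.5 through a median of 41.96 to 102.3 TPM in cells 1 to 91 and from 2.72 through 15.5 to 41.6 TPM in cells from 92. All 21 of the latter lay below the median of the former, though the ranges overlapped. The difference was -1.43 on the log2 scale, the 7th lowest of 7227 genes. Hspa5 ran from 43.8 through 107.3 to 313 TPM in cells 1 to 91 and from 24.6 through 50.95 to 97.8 TPM in cells from 92. Its difference was -1.15, 16th from the lowest, with 21 of 21 cells below the other median and 53 of 87 cells above the highest of the 21. Hsp90b1 ran from 10.7 through 36.8 to 96.99 TPM in cells 1 to 91 and from 8.59 through 18.5 to 35.4 TPM in the others, a difference of -0.96 with 21 of 21 cells below. These 3 genes were also the 3 called variable, but spread was taken over all cells and so contains this difference. Manf, with a difference of -0.96 like Hsp90b1, was not called variable.

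Manf had medians of 71.8 and 34.5 TPM (-0.96, 20 of 21 cells below the median of cells 1 to 91). Calr had medians of 26.1 and 14.4 TPM (-0.87, 18 of 21). Sdf2l1 had medians of 53.7 and 27.2 TPM (-0.86, 18 of 21). All of these lay among the 49 lowest of 7227 differences. Hyou1 had medians of 3.62 and 1.93 TPM (-0.75, 18 of 21), and near 1 TPM the added 1 shrinks its difference. Dnajb11 had medians of 23.4 and 13.7 TPM (-0.66, 19 of 21).

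Dnajc3 and Canx did not reach 1.5-fold. Dnajc3 had medians of 22.4 and 17.2 TPM, a difference of -0.48 with 20 of 21 cells below the median of the others. Canx had medians of 8.75 and 7.73 TPM and a difference of -0.18 (14 of 21 cells), close to the -0.15 of all genes. Its sign turned when the digestive enzymes were left out of the total (0.05) and under median-of-ratios scaling (0.08).

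**Figure D3:**
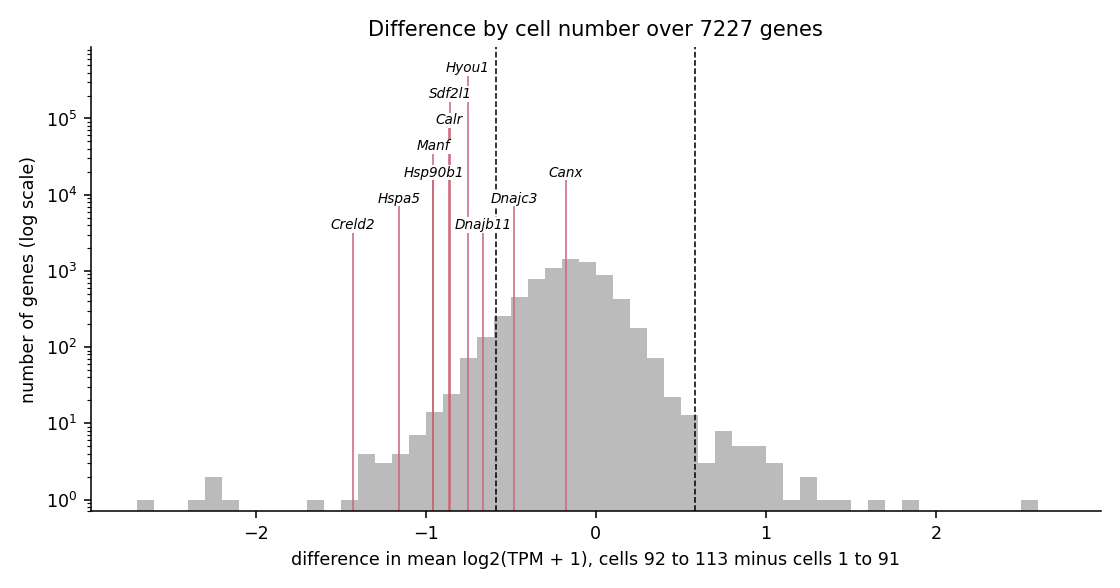
Histogram of the difference in mean log2(TPM + 1), cells numbered from 92 minus cells 1 to 91, over 7227 genes, with the number of genes on a log axis, red lines at the 10 chaperone genes and dashed lines at 1.5-fold. Creld2 and Hspa5 lie farthest left at -1.43 and -1.15, 8 genes lie left of the dashed line, and Canx lies within the bulk at -0.18.

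As a sum, the 10 genes made up a median of 400 TPM in cells 1 to 91 (range 214 to 838) and 207 TPM in cells from 92 (132 to 391). The composition also differed between the sets. The median ratio of Hspa5 to Canx was 13.3 in the first set and 6.95 in the second, that of Hspa5 to Dnajb11 4.81 and 3.69, and that of Hspa5 to Hsp90b1 3.23 and 2.76. Ratios within a cell do not depend on how its total was set. Hspa5 made up a median of 27.95% of the sum in cells 1 to 91 and 25% in cells from 92.

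The count was the same against either part of the earlier cells, divided after cell 48, a division chosen after values of Reg genes were seen. Against cells 1 to 48, 8 of 10 chaperone genes were lower by 1.5-fold (5.81% of all genes) with a median of -0.78, and against cells 49 to 91 again 8 of 10 (3.69%) with a median of -0.96. Between cells 49 to 91 and cells 1 to 48, 0 of 10 were higher by 1.5-fold, against 0.36% of genes. There the differences ran from -0.12 for Dnajb11 to 0.30 for Hsp90b1, with 0.28 for both Calr and Creld2.

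By the mean z-score over the 10 genes, the 10 lowest cells were all numbered 92 or above, as were 15 of the lowest 21. The score was above 0 in 1 of 21 cells of that set, Cell__number_113, and in 55 of 87 of the others. The lowest cells of the first set were cell 15 (-1.08) and cell 63 (-1.07), and the highest of the second was Cell__number_113 (0.31), so the sets overlapped. Other measures moved with cell number as well. The median number of genes detected was 4224 in cells 1 to 91 and 3939 in cells from 92, and the digestive enzyme share 89.2 and 90.8%. Immediate-early genes, which are induced within minutes of a stimulus, were higher in cells from 92 (10 of 13 by 1.5-fold, against 0.443% of all genes). Fos had medians of 14.6 TPM in cells 1 to 91 and 56.9 TPM in cells from 92. Of 7 genes of the Reg family, 6 were lower by 1.5-fold, against 4.29% of all genes. Reg2 had medians of 111.7 and 15.1 TPM in the same order. The part of these measures in the chaperone difference was not tested. Over all cells Fos correlated with the chaperone score at -0.18, and at 0.02 within cells 1 to 91.

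**Figure D4:**
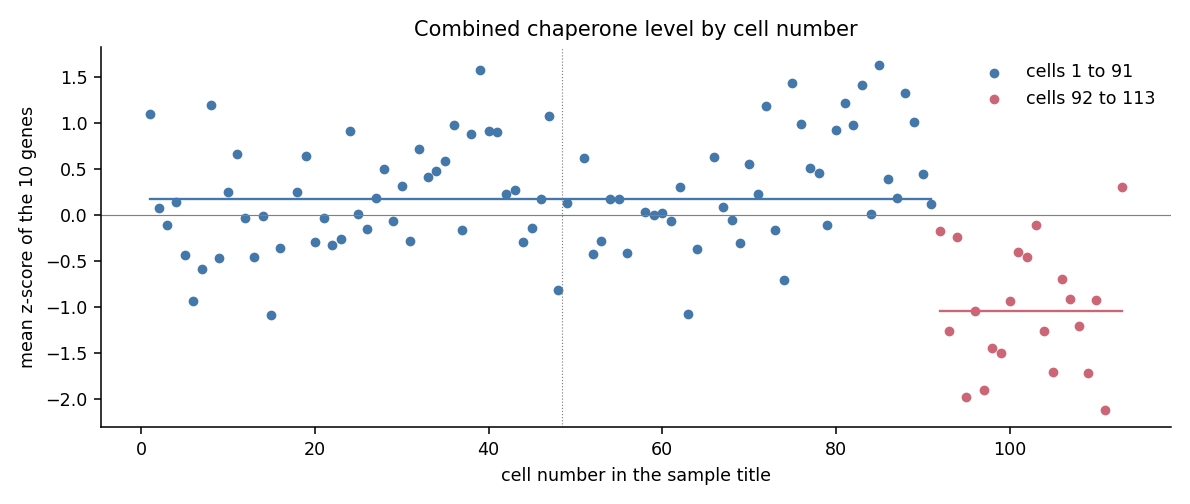
Mean z-score of the 10 genes on the vertical axis against cell number, 1 point per cell, for cells 1 to 91 (blue) and cells from 92 (red), with horizontal lines at the medians of 0.18 and -1.04 and a dotted line between cells 48 and 49. In the red set 1 of 21 cells lies above 0, and scores within the blue set run from -1.08 to 1.64.

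The other genes of ER protein handling followed the 10 genes to different degrees. Over all 7227 genes the median correlation with the chaperone score was 0.12 and 10.5% reached 0.3. The score was lower in cells from 92, so genes lower there gain correlation over all cells, and the counts below are not separate results. Within cells 1 to 91 the median was 0.36 for ER-associated degradation (0.47 over all cells) and 0.31 for KDEL receptors (0.41). It was 0.35 for ER translocation (0.49) and 0.08 for all genes. Of 16 protein disulfide isomerases and ER oxidases, 10 reached 0.3 and 4 were lower by 1.5-fold in cells from 92, where 4.29% of all genes were. Pdia4 (0.86) and Pdia3 (0.81) were closest, with medians of 10.5 and 3.68 TPM for Pdia4 and 16.8 and 8.24 TPM for Pdia3 in cells 1 to 91 and from 92. Pdia2, an isomerase enriched in the pancreas, had a mean of 930 TPM, above the highest summed level of the 10 chaperones (838 TPM), yet correlated at 0.21 and differed by -0.07. P4hb, the founding member of the family, was at 146 TPM and correlated at 0.56.

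Of 12 genes of ER-associated degradation, the pathway that sends misfolded proteins to the proteasome, 11 reached 0.3 and 2 were lower by 1.5-fold. Syvn1 (HRD1), its central ubiquitin ligase, correlated at 0.81 and had medians of 6.54 and 1.66 TPM. Derl3 correlated at 0.58 with a difference of -0.67, and Herpud1 at 0.57 with a difference of -0.54. All 3 KDEL receptors, which return escaped lumenal proteins such as BiP to the ER, reached 0.3 over all cells. Of these, 2 of 3 were lower by 1.5-fold, Kdelr2 (-0.60) and Kdelr3 (-0.78), and within cells 1 to 91 Kdelr3 correlated at 0.21. Of 13 genes of ER translocation, 11 reached 0.3, led by Sec61a1 and Ssr1 at 0.71 each, and 2 were lower by 1.5-fold, Ssr2 (-1.17) and Ssr3 (-0.64). Of 23 other ER folding factors, 12 reached 0.3 and 3 were lower. The J-domain protein Dnajb9 correlated at 0.59 with a difference of -0.82, whereas the abundant prolyl isomerases Ppib (176 TPM) and Fkbp11 (134 TPM) correlated at 0.39 and 0.26.

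Of 11 sensors and effectors of the unfolded protein response, 3 reached 0.3. Their median correlation with the chaperone score was 0.24 over all cells and 0.24 within cells 1 to 91. By the same measures the disulfide isomerases and oxidases were at 0.39 and 0.22, and the other ER folding factors at 0.33 and 0.22. Of the 11 genes, 1 was lower by 1.5-fold (Chac1, -0.87), 1 was higher (Ppp1r15a, 0.88), and the median difference was 0.00 (0.0018). Xbp1, the transcription factor that IRE1 activates by splicing its mRNA, had medians of 58.5 TPM in cells 1 to 91 and 58.2 TPM in cells from 92. Its correlation with the chaperone score was 0.07 over all cells and 0.44 within cells from 92. Gene-level TPM do not separate spliced from unspliced Xbp1. Atf6 correlated at 0.24 and Ern1 at 0.04, with differences of 0.00 (0.0018) and 0.02, at means of 1.27 and 0.65 TPM. Atf4, the factor translated when PERK is active, correlated at 0.61 and had medians of 22.95 and 14.96 TPM, a difference of -0.58 that falls just short of 1.5-fold. Ddit3 and Chac1, which act downstream of Atf4, correlated at 0.22 and 0.28 over all cells. Ddit3 was at 0.40 within cells 1 to 91 and -0.34 within cells from 92, and Chac1 at 0.22 and -0.07.

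Chaperones of the cytosol and mitochondria gave a further comparison. Of 17 genes, 7 reached 0.3 and 3 were lower by 1.5-fold. Their median correlation was 0.28 over all cells and 0.25 within cells 1 to 91, where the disulfide isomerases and oxidases were at 0.22. The mitochondrial chaperonin Hspd1 correlated at 0.57 over all cells, 0.45 within cells 1 to 91 and -0.07 within cells from 92. The cytosolic Hspa8 was at 0.50, 0.51 and -0.09. Hsp90aa1, the cytosolic relative of Hsp90b1, correlated at 0.19 and differed by 0.20. Of 36 genes of the digestive enzyme list, 5 reached 0.3 and 1 was lower by 1.5-fold, with a median correlation of 0.06. The lower gene was Reg1 (-0.76), which is not an enzyme and is also counted in the Reg family.

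**Figure D5:**
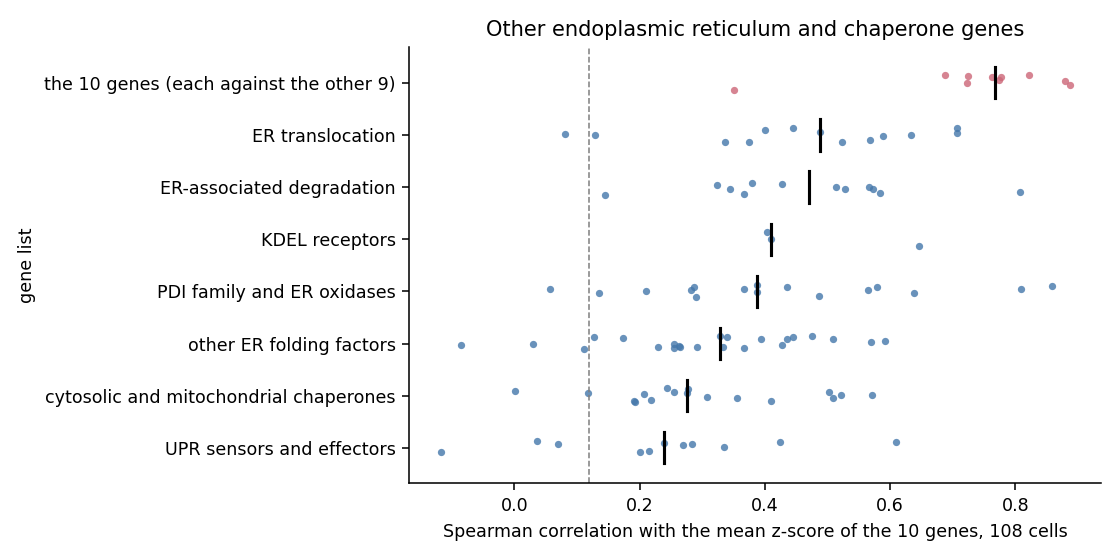
Spearman correlation over all cells with the mean z-score of the 10 chaperone genes, 1 point per gene, for lists of other ER and chaperone genes (blue) and for each of the 10 genes against the other 9 (red), with black bars at the medians and a dashed line at the all-gene median of 0.12. Medians over all cells run from 0.49 for ER translocation to 0.24 for the sensors and effectors of the unfolded protein response (UPR), and within cells 1 to 91 the UPR median (0.24) is not the lowest.

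Outside all lists, the genes nearest to the chaperone score were Rpn1 (0.73), a subunit of the oligosaccharyltransferase that attaches N-glycans in the ER, the spermidine synthase Srm (0.65) and the ER-to-Golgi GTPase Rab1a (0.64). They were followed by Serp1, a stabiliser of membrane proteins at the translocon (0.62), the cargo receptor Lman2 (0.61) and 6430548M08Rik (0.59). Next came the ribosome-binding ER protein Lrrc59 (0.59), the ER membrane transporter Slc35b1 (0.59), Arf4 (0.58) and the tRNA synthetase Nars (0.58). These values are over all cells, and all of these genes were lower in cells from 92. Within cells 1 to 91 their correlations ran from 0.41 (Lman2) to 0.64 (Rpn1). Within cells from 92 they ran from 0.02 (Rab1a) to 0.63 (Lman2), with Rpn1 at 0.21 and Srm at 0.22. The genes outside the lists with the most negative values over all cells were the metallothioneins Mt1 (-0.37) and Mt2 (-0.36). Rnf125 (-0.32), Lfng (-0.26) and 2210010C04Rik (-0.26) came next.

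Among the 6 chaperone genes with the ER stress response element, the difference by cell number ran from -1.43 for Creld2 to -0.18 for Canx. Sdf2l1, without an element in its window, differed by -0.86, and Dnajb11, with ERSE-II, by -0.66. Of 31 other genes with the element, 23 were measured and 6 were among the 7227 genes. Their correlations with the chaperone score were 0.81 for Syvn1, 0.64 for Pdia6, 0.58 for Derl3, 0.23 for Alg12, 0.18 for Xlr3a and 0.13 for Hnrnpa3, and Syvn1 and Derl3 were lower by 1.5-fold. That is 3 of 6 at or above 0.3, where 10.5% of all genes were, and 2 of 6 lower, where 4.29% were. Syvn1, Derl3 and Pdia6 belong to the ER lists above, in which 11 of 12 degradation genes and 10 of 16 isomerases and oxidases reached 0.3. A part of the element apart from ER membership was not tested.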

How the data were processed

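The authors deposited 1 table of TPM, 1 column per cell, rounded to 2 decimals, and the unit was read from the column sums of about 1000000. Per the submitters' processing notes, STAR 2.4.2a, RSEM 1.2.21, edgeR and mm10 were used, with no role or order given. Columns were matched to samples by the cell number in the title. Of 45195 rows, 44548 had a gene symbol in GENCODE M21 and 25226 were 0 in every cell. SMART-seq2 here has no molecular identifiers, so amplification is part of every value.

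Values were analysed as log2(TPM + 1) in Python 3.11.15 with pandas 2.3.3, SciPy 1.17.1 and statsmodels 0.14.6. Detection meant at least 1 TPM. The genes detected in 10% or more of cells (11 cells) formed the background of 7227. The trend of squared CV was a lowess with span 0.3 on log10 scales. Each z-score was taken over all cells and averaged over genes. Differences were called at 1.5-fold on the mean log2 scale. No cell was left out and no doublet caller was run. The trend of squared CV, the difference by cell number and the Spearman correlation were tested on simulated data, and the other steps were not.

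Named genes were all 10 members. From each other list they were the 2 of highest mean and the 2 of largest difference by cell number, with 7 genes of the unfolded protein response always included. Outside the lists they were the 10 nearest and 5 farthest genes by correlation, and for each member its nearest gene. The values of P4hb, Sec61a1, Ssr1, Spcs2, Txndc5, Sec11a, Ganab and the genes with the promoter element were added after they were seen. The single cells described were added in the same way. The members and lists were chosen with earlier results of these data known. Alternatives were other pseudocounts, scalings, filters, sets of cells and thresholds.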

Additional observations from a re-analysis of the deposited data

How the results depend on the processing

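The median correlation over the 45 pairs stayed between 0.51 and 0.66 under its 13 alternatives. The median difference by cell number stayed between -0.59 and -0.96 under its 10. The count of genes lower by 1.5-fold was 5 of 10 with a pseudocount of 10 (0.346% of all genes), 5 with median-of-ratios scaling (1.04%) and 2, Creld2 and Hspa5, at 2-fold (0.346%). It was 8 with a pseudocount of 0.1, where 24.3% of all genes were lower, and 7 without the digestive enzymes (13.1%) or with each cell's own total (2.96%). It was 8 in the other settings. Median-of-ratios scaling moved the median of all genes from -0.15 to -0.02. Relative to that median, the 10 genes differed by -0.71 as reported and by -0.57 under that scaling. Canx alone changed sign, to 0.053 without the digestive enzymes in the total and 0.081 with median-of-ratios scaling. The other 9 genes kept theirs in all 10 settings. The count of variable genes was 2 to 4 under its 7 alternatives. The median summed TPM became 3281 when the digestive enzymes were left out of the total, because the remaining genes then share the whole total. Leaving out Cell__number_111, or Canx from the pairs, was chosen after seeing the data. No paired analysis was possible because there is 1 group. Read depth per cell is unknown.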

Other observations

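Some other ER genes, among them relatives of the 10, were nearly silent in these cells. Clgn, the relative of calnexin known from the testis, was listed at 0 in every cell, and Cdnf, the relative of Manf, reached 1 TPM in 0 cells with a highest value of 0.75 TPM. Ern2, the IRE1 relative of mucous epithelia, was also listed at 0 in every cell. Serpinh1, the collagen chaperone, reached 1 TPM in 10 cells. These genes were singled out after their values were seen.

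Within cells from 92, the 2 abundant prolyl isomerases followed the chaperone score more closely than within cells 1 to 91, where Fkbp11 was at 0.07 and Ppib at 0.22. In the 21 cells they were at 0.86 and 0.82. This was not particular to them. Some other ER genes rose too, among them Spcs2 (0.45 to 0.85), Txndc5 (0.52 to 0.82) and P4hb (0.43 to 0.72), while others fell. The number of genes detected also rose, from 0.31 to 0.64. The opposite order was seen for Herpud1, at 0.55 in cells 1 to 91 and 0.00 (-0.0013) in cells from 92. It was also seen for Syvn1 (0.74 and 0.46), Ssr1 (0.70 and 0.42), Sec11a (0.48 and 0.12) and Ganab (0.34 and -0.07). These are descriptions over cells, in which all genes share a cell's library and depth, and the difference between the sets was not tested.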
